A study of Mus musculus with 12 samples.

Results

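Messenger RNA of 10 genes of the Notch pathway was followed in the root-forming, apical part of the first lower molar of mice with and without the transcription factor gene Nfic. The 10 genes encode 2 receptors (Notch1, Notch2), 3 ligands (Jag1, Jag2, Dll1), a glycosyltransferase that modifies the receptors (Lfng) and 4 genes that Notch activity is known to switch on (Hes1, Hey1, Heyl, Nrarp). They were taken by symbol from a table of 25899 genes, all 10 were found, and all 10 passed the filter of a mean of 1 RPKM or more (reads scaled to gene length and library size). The tested mice were Nfic-/-, and the controls were Nfic+/- littermates, so each control carried 1 disrupted copy itself and no wild-type mice were analysed here. All mice were C57BL/6 at postnatal day 4, with 6 libraries per genotype numbered 5 to 10, and equal numbers were read as littermate pairs. No label says how many germs or animals went into a library, so p-values measure the spread between libraries.

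Notch receptors sit in the membrane and are activated by ligands of the Jagged and Delta families on neighbouring cells. Ligand binding lets proteases release the intracellular part of the receptor, which joins the DNA-binding protein Rbpj in the nucleus and activates genes of the Hes and Hey families. In the developing tooth of rodents, Notch receptors and ligands are known to be expressed in distinct layers of the dental epithelium and in the mesenchyme, and Notch signalling also works in blood vessels. The dissected tissue holds all of these, and in bulk RNA fewer cells of a type and less RNA per cell cannot be told apart.

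The libraries held 70.2 to 96.4 M reads. Nfic itself had 11.4 ± 3.02 RPKM in Nfic-/- libraries and 16.8 ± 4.42 RPKM in Nfic+/- libraries (SD, n = 6 each). It was lower in 6 of 6 pairs (exact permutation test, two-sided, p = 0.0303) but not absent, and the deleted part of the gene is not given in the sources used here. Markers of all the main tissue layers were detected. The summed level of 12 dental epithelium markers was 2164 to 3222 RPKM in Nfic-/- libraries (median 2841) and 1778 to 2732 RPKM in Nfic+/- libraries (median 2095), and higher in 6 of 6 pairs. The sum of 10 dental mesenchyme markers was 104 to 316 RPKM in Nfic-/- libraries (median 171) and 162 to 346 RPKM in Nfic+/- libraries (median 255), and higher in 2 of 6 pairs. None of the markers in either list was at the floor in all libraries. For genotype, 0 of them passed the adjusted threshold, as did 0% of all genes. At an unadjusted p under 0.05 (limma), 4 of 12 epithelium markers were higher in Nfic-/- libraries, against 2.62% of all genes. Of 9 tested mesenchyme markers 4 were lower, against 2.72% of all genes. Libraries 8 and 9 of both genotypes carried intestinal transcripts (a marker sum of 137 to 183 RPKM, against 0.168 to 0.425 RPKM elsewhere). Sample numbers in the column headers repeat between libraries 5 to 7 and 8 to 10, which were therefore read as 2 sequencing runs, although no label names a run.

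By level, the ligand Jag2 stood first with a mean of 41.7 RPKM over all 12 libraries, followed by the target Hey1 with 29.7 RPKM. Hes1 (20.8 RPKM), Jag1 (19.7 RPKM) and Notch2 (18.5 RPKM) came next and lay close together: Jag1 exceeded Notch2 in 5 of 12 libraries only, and Hes1 exceeded Jag1 in 8 of 12. Nrarp (14.6 RPKM) and Lfng (13.4 RPKM) followed, with Nrarp above Lfng in 10 of 12 libraries. Heyl (5.12 RPKM), Notch1 (4.00 RPKM) and Dll1 (2.45 RPKM) were the lowest, and Lfng exceeded Heyl in 12 of 12 libraries. Of the receptors Notch2 was the more abundant, and of the 3 ligands Dll1 was the scarcest. Dll1 rested on 223 to 1867 reads per library and Jag2 on 16598 to 28602 reads, so counting error was small beside the spread between libraries for all of them.

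**Figure D1:**
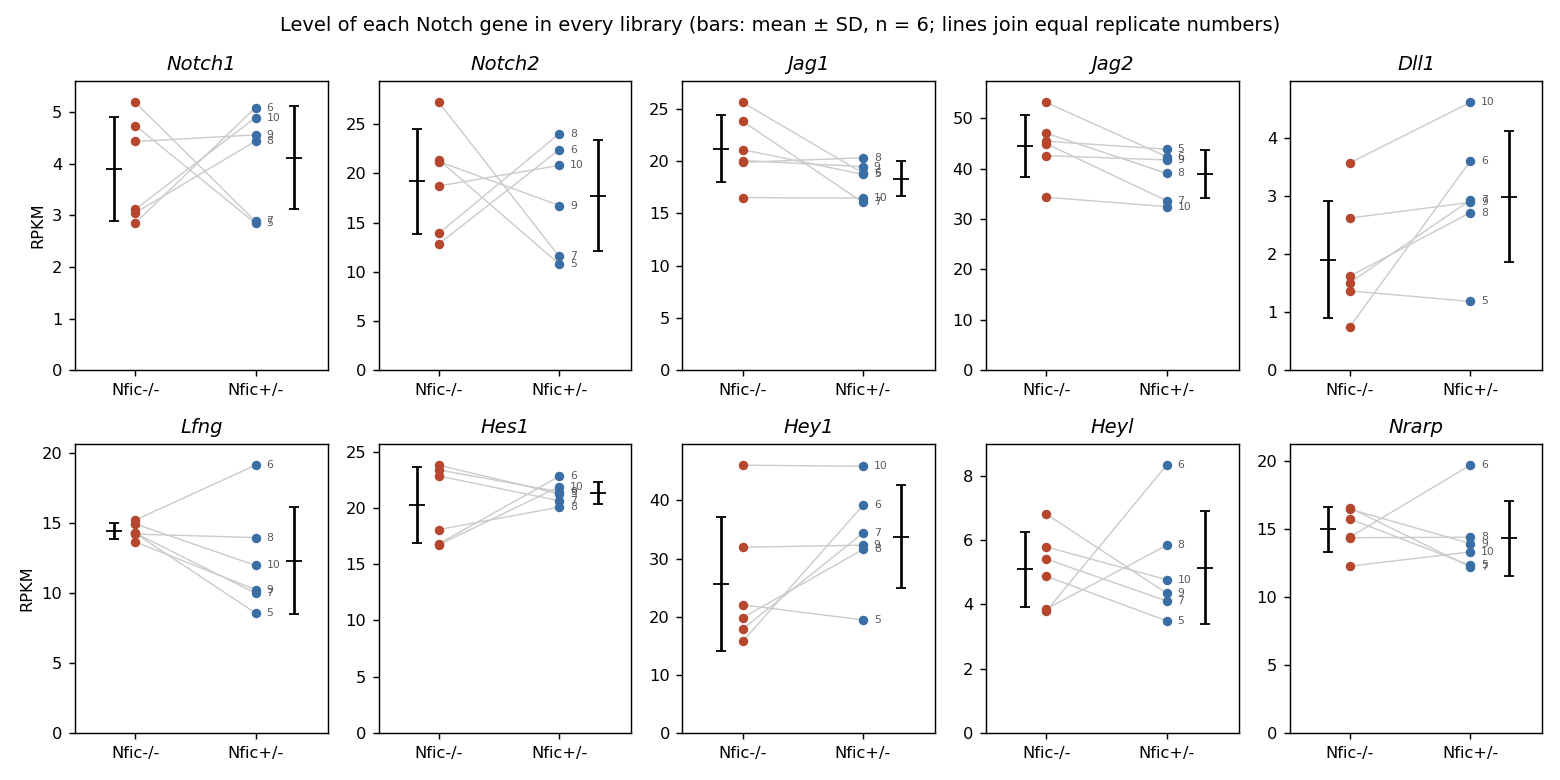
Level in RPKM of each of the 10 Notch genes in every library, Nfic-/- on the left and Nfic+/- on the right, with lines joining libraries of equal number and bars giving the mean and SD (n = 6 each). The genotypes overlap in all 10 genes, Dll1 and Hey1 run mostly lower in Nfic-/- libraries, and Lfng spans 13.6 to 15.2 RPKM in Nfic-/- libraries against 8.56 to 19.1 RPKM in Nfic+/- libraries.

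Promoter sequence was available for 7 of the 10 genes in RefSeq (GRCm38.p6). Of these, 4 stretches are shown, those of the ligands Jag1 and Dll1 and of the feedback genes Lfng and Nrarp. Each is the part of the 250 bases before a RefSeq transcript start that also lies before the GENCODE gene start, written 5′ to 3′ along the gene. Capitals mark TGGGAA, the core letters of Rbpj sites, and CACGNG, letters shared by many Hes and Hey sites, on either strand.
Lfng promoter, chr5:140607091-140607319, plus strand: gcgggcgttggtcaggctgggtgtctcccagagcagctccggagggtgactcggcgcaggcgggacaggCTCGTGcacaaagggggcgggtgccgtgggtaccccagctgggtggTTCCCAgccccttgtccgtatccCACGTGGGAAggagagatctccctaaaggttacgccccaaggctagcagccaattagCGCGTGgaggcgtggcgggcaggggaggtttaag
Nrarp promoter, chr2:25180508-25180757, plus strand: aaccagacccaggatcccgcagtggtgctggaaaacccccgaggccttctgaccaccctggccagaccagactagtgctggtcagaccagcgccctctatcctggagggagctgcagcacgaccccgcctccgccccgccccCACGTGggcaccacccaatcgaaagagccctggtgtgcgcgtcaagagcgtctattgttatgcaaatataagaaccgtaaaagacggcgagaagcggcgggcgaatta
Jag1 promoter, chr2:137116645-137116770, minus strand: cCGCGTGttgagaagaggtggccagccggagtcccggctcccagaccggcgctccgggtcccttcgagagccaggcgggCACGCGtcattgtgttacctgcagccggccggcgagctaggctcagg
Dll1 promoter, chr17:15376933-15377182, minus strand: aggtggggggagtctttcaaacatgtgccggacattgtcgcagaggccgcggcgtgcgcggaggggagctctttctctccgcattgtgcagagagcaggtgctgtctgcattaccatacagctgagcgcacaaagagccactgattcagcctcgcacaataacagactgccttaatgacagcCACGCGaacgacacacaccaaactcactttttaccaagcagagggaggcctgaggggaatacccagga
In the full windows of 250 bases, TGGGAA occurred in 1 of the 7 genes (Lfng), against 21.6% of 32851 RefSeq promoter windows of that length. Lfng held it at 135 and 108 bases before the start, and the nearer match overlaps a CACGNG match. CACGNG occurred in 5 of the 7, against 23.5% of all windows. The windows of Jag2 and Notch1, which are not shown, held 0 matches of either motif. CACGNG holds CpG, and the windows of the 7 genes were 56% to 87.2% G and C, against a median of 52.4% over all windows. Dll1 also entered with 2 windows, each with a match, so the shares are not alike in makeup. These are matches of letters and say nothing of binding. Promoter windows of Hes1, Hey1 and Heyl were not analysed here.

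No gene among the 10 differed between the genotypes past the threshold. limma with Benjamini-Hochberg adjustment over 12094 genes called 0 of the 10, as it called 0% of all genes in either direction. At an unadjusted p under 0.05 it also called 0 of the 10, against 2.62% of all genes higher and 2.72% lower in Nfic-/- libraries. The differences, Nfic-/- minus Nfic+/- in log2(RPKM + 1), were above 0 for 6 genes and below 0 for 4, with a median of 0.04, against 5914 above and 6180 below over all genes. The median size of the difference was 0.16 for the 10 genes and 0.07 for all genes. The 10 genes were not matched to all genes in level or spread, so these sizes do not compare like with like. In no gene did the 6 Nfic-/- libraries all lie above or all below the Nfic+/- libraries, which held for 0.124% and 0.0331% of all genes. Jag1, Jag2 and Lfng were higher in 5 or 6 of 6 pairs, as were 13.3% of all genes. Dll1 was lower in 5 of 6 pairs, and 8.32% of all genes were lower in 5 or 6. None of the 10 was lower in 6 of 6 pairs, against 2.68% of all genes.

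Other fits gave the same adjusted result for the 10 genes. With libraries weighted by their scatter, limma called 0 of the 10 at the adjusted threshold, against 0.0744% of all genes higher and 0.0661% lower. At an unadjusted p under 0.05 that fit had 4 of the 10 higher (Jag1, Jag2, Nrarp, Lfng) and 2 lower (Dll1, Hey1), against 9% and 9.71% of all genes. After median-of-ratios scaling, 1 was higher (Lfng) and 2 were lower (Dll1, Hey1), against 3.47% and 5.85% of all genes.

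**Figure D2:**
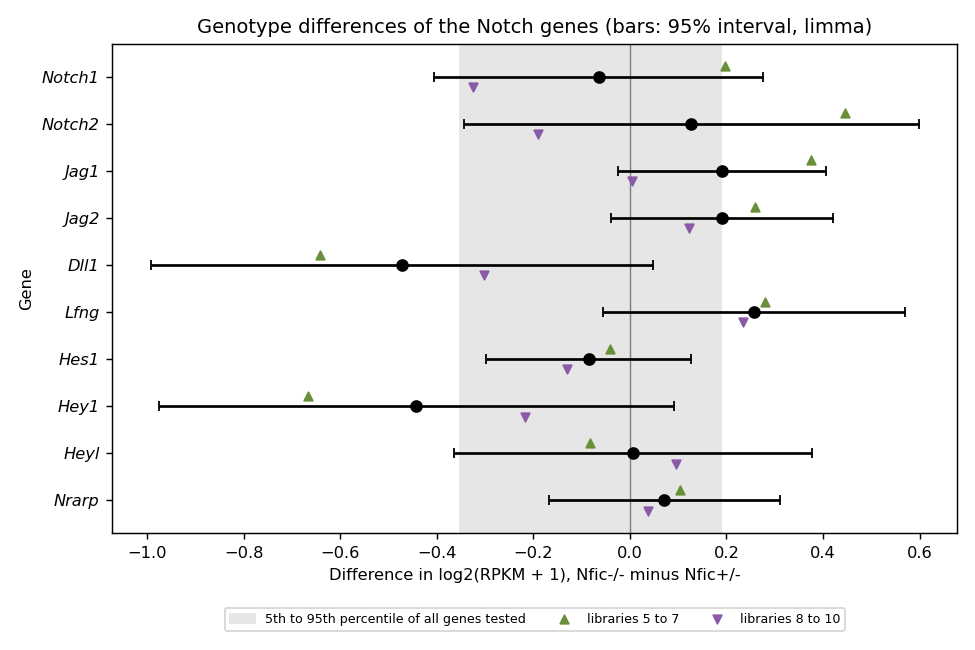
Difference of each gene between the genotypes in log2(RPKM + 1), Nfic-/- minus Nfic+/-, with the 95% interval from limma over all 12 libraries; triangles give the differences within libraries 5 to 7 and 8 to 10, and the band spans the 5th to 95th percentile of all 12094 genes (-0.35 to 0.19). All 10 intervals include 0, and Notch1, Notch2 and Heyl have opposite signs in the 2 runs.

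The receptors did not separate by genotype. Notch1 (chromosome 2, 26457903 to 26516663, minus strand, GRCm38) had 2.85 to 5.18 RPKM in Nfic-/- libraries (median 3.77) and 2.84 to 5.08 RPKM in Nfic+/- libraries (median 4.49). Its difference was -0.06 (SE 0.159, 95% interval -0.41 to 0.28; exact permutation p = 0.807). The Notch1 values fell into 2 bands with no library between them: 5 libraries at 2.84 to 3.11 RPKM, 3 of them Nfic-/- and 2 Nfic+/-, and 7 libraries at 4.43 to 5.18 RPKM, 3 of them Nfic-/- and 4 Nfic+/-. In libraries 5 to 7 the bands followed the sample numbers in the column headers, with the 3 odd numbers at 2.84 to 2.88 RPKM and the 3 even numbers at 4.74 to 5.18 RPKM. Each parity held both genotypes, and no label explains these numbers. In the other run the parities overlapped, with odd numbers at 3.11 to 4.44 RPKM and even numbers at 3.05 to 4.89 RPKM. The division by number was thus not seen there.

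Notch2 (chromosome 3, 98013527 to 98150361, plus strand) had 12.8 to 27.2 RPKM in Nfic-/- libraries (median 19.97) and 10.8 to 24.0 RPKM in Nfic+/- libraries (median 18.8). The difference was 0.13 (SE 0.219; exact permutation p = 0.604), with 0.44 within libraries 5 to 7 and -0.19 within libraries 8 to 10. Notch2 divided in the same way in libraries 5 to 7, with the odd numbers at 10.8 to 12.8 RPKM and the even numbers at 21.4 to 27.2 RPKM. In libraries 8 to 10 the parities overlapped, with odd numbers at 18.7 to 24.0 RPKM and even numbers at 13.9 to 20.8 RPKM. The genes whose profile was most like that of Notch1, after each genotype mean was subtracted, were Col7a1 and Lama5, which encode an anchoring-fibril collagen and a laminin chain of the basement membrane. In libraries 5 to 7 Col7a1 had 7.86 to 10.2 RPKM at odd numbers and 14.9 to 19.4 RPKM at even numbers, and Lama5 had 4.41 to 7.07 RPKM and 12.5 to 16.0 RPKM. Both genes were picked for likeness to Notch1 over these same libraries, so a like division follows from the choice and is a description.

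The Jagged ligands were a little higher in Nfic-/- libraries, within the spread between libraries. Jag1 (chromosome 2, 137081456 to 137116644, minus strand) had 16.5 to 25.6 RPKM in Nfic-/- libraries (median 20.6) and 16.1 to 20.3 RPKM in Nfic+/- libraries (median 18.8). Its difference was 0.19 (SE 0.1002; limma adjusted p = 0.960, exact permutation p = 0.0844). Within libraries 5 to 7 it was 0.38, and within libraries 8 to 10 it was 0.0047.

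Jag2 (chromosome 12, 112907819 to 112929776, minus strand) had 34.3 to 53.1 RPKM in Nfic-/- libraries (median 45.2) and 32.5 to 43.8 RPKM in Nfic+/- libraries (median 40.4). Its difference was 0.19 (SE 0.107; limma adjusted p = 0.973, exact permutation p = 0.113). Jag2 was higher in 6 of 6 pairs, which 2.69% of all genes were. Flipping the signs of the pair differences in all possible ways gave an exact p of 0.0312, and no smaller value is possible with 6 pairs. For the other genes this exact p was 0.0938 (Jag1, Dll1), 0.125 (Lfng) and 0.188 (Hey1), and above these for the remaining 5. With the pair as a block, the limma adjusted p = 0.579. The 4 highest Jag2 values were all in Nfic-/- libraries. The differences were 0.26 and 0.12 in the 2 runs.

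Dll1 stood on the other side of 0. This Delta-type ligand (chromosome 17, 15367354 to 15376872, minus strand) had 0.753 to 3.58 RPKM in Nfic-/- libraries (median 1.57) and 1.19 to 4.62 RPKM in Nfic+/- libraries (median 2.92). Its means were 1.91 ± 1.02 and 2.995 ± 1.13 RPKM in Nfic-/- and Nfic+/- libraries (SD, n = 6 each), the largest relative gap of the 10 genes. The difference was -0.47 (SE 0.242, 95% interval -0.99 to 0.05; limma adjusted p = 0.945, exact permutation p = 0.117). It was -0.64 and -0.30 in libraries 5 to 7 and 8 to 10, and -0.29 without the libraries numbered 6. With the pair as a block, the limma adjusted p = 0.518.

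Lfng, the Fringe enzyme that alters which ligands a receptor responds to, kept an even level in Nfic-/- libraries and a wide one in controls. Lfng (chromosome 5, 140607320 to 140615545, plus strand) had 13.6 to 15.2 RPKM in Nfic-/- libraries (median 14.3) and 8.56 to 19.1 RPKM in Nfic+/- libraries (median 11.1). The standard deviations were 0.559 RPKM in Nfic-/- and 3.82 RPKM in Nfic+/- libraries, which was not tested, and the Nfic+/- value was 2.07 RPKM without library 6. The difference in level was 0.26 (SE 0.145; limma adjusted p = 0.974, exact permutation p = 0.126), with 0.28 and 0.23 in the 2 runs, and 5 of 6 pairs were higher. It was 0.39 without Nfic+/- library 6 (limma adjusted p = 0.397) and 0.17 without Nfic+/- library 5.

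Among the targets, Hey1 was near Dll1 in the direction and size of its difference. The other 3 had differences of at most 0.09 in size with all libraries. Hey1 (chromosome 3, 8663359 to 8667256, minus strand), a transcriptional repressor, had 15.7 to 46.1 RPKM in Nfic-/- libraries (median 20.9) and 19.4 to 45.9 RPKM in Nfic+/- libraries (median 33.3). Its difference was -0.44 (SE 0.248; limma adjusted p = 0.973, exact permutation p = 0.156), with -0.67 and -0.22 in the 2 runs and -0.28 without the libraries numbered 6. Hey1 was higher in Nfic-/- libraries in 2 of 6 pairs, and Dll1 in 1 of 6. With the pair as a block, the limma adjusted p for Hey1 was 0.586. The block fit thus had 1 of the 10 genes higher (Jag2) and 2 lower (Dll1, Hey1) at an unadjusted p under 0.05, against 3.08% and 5.03% of all genes.

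Hes1 (chromosome 16, 30064384 to 30067796, plus strand), the repressor most widely used as a Notch readout, had 16.7 to 23.8 RPKM in Nfic-/- libraries (median 20.5) and 20.1 to 22.8 RPKM in Nfic+/- libraries (median 21.3). Its difference was -0.09 (SE 0.098; exact permutation p = 0.387). All 6 Nfic+/- values lay inside the Nfic-/- range, with 3 Nfic-/- libraries above every Nfic+/- library and 3 below. The spread was therefore wider in Nfic-/- libraries, at 3.41 against 0.957 RPKM (SD), the reverse of Lfng.

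Heyl (chromosome 4, 123233556 to 123249875, plus strand), another repressor of the Hey family, had 3.79 to 6.81 RPKM in Nfic-/- libraries (median 5.14) and 3.49 to 8.34 RPKM in Nfic+/- libraries (median 4.56), a difference of 0.01 (SE 0.172). Nrarp (chromosome 2, 25180758 to 25183339, plus strand), a feedback inhibitor of the activated receptor, had 12.3 to 16.5 RPKM in Nfic-/- libraries (median 15.1) and 12.2 to 19.7 RPKM in Nfic+/- libraries (median 13.6), a difference of 0.07 (SE 0.111). The Nfic+/- library 6 had the highest level of Lfng, Heyl and Nrarp. Without that library the Nrarp difference was 0.16 (limma adjusted p = 0.735), and without both libraries numbered 6 it was 0.17. The 95% interval for Nrarp with all libraries was -0.17 to 0.31, and for Heyl -0.36 to 0.38.

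The genes fell into a few patterns across libraries, as correlations of log2(RPKM + 1) after each genotype mean was subtracted show (12 libraries, given as a description; all share library depth and tissue makeup). Dll1 and Hey1 ran together with Pearson's r = 0.96 (Spearman's rho 0.98), with r = 0.95 within Nfic-/- and 0.998 within Nfic+/- libraries, 0.94 and 0.98 in the 2 runs, and 0.95 without the 2 libraries farthest from the median. Jag1 and Jag2 ran together with r = 0.84 (rho 0.69; 0.79 and 0.84 in the runs). Jag2 ran against Dll1 with r = -0.80 and against Hey1 with r = -0.82 (rho -0.74 for both). The library with the most Jag2, Nfic-/- 6, had the least Dll1 and the least Hey1. Profiles with r over 0.9 to that of Dll1 were found in 1160 of 10533 genes, and to that of Hey1 in 857, so these patterns were widely shared. For Jag1 there were 6 such genes and for Jag2 4. Nrarp and Lfng had r = 0.93 within Nfic+/- libraries and -0.69 within Nfic-/- libraries (n = 6 each), which were not compared by a test. Over all 12 libraries their r was 0.72 (rho 0.35), it was 0.93 and -0.15 in the 2 runs, and it was 0.25 without the 2 farthest libraries, so the relation rests on those.

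**Figure D3:**
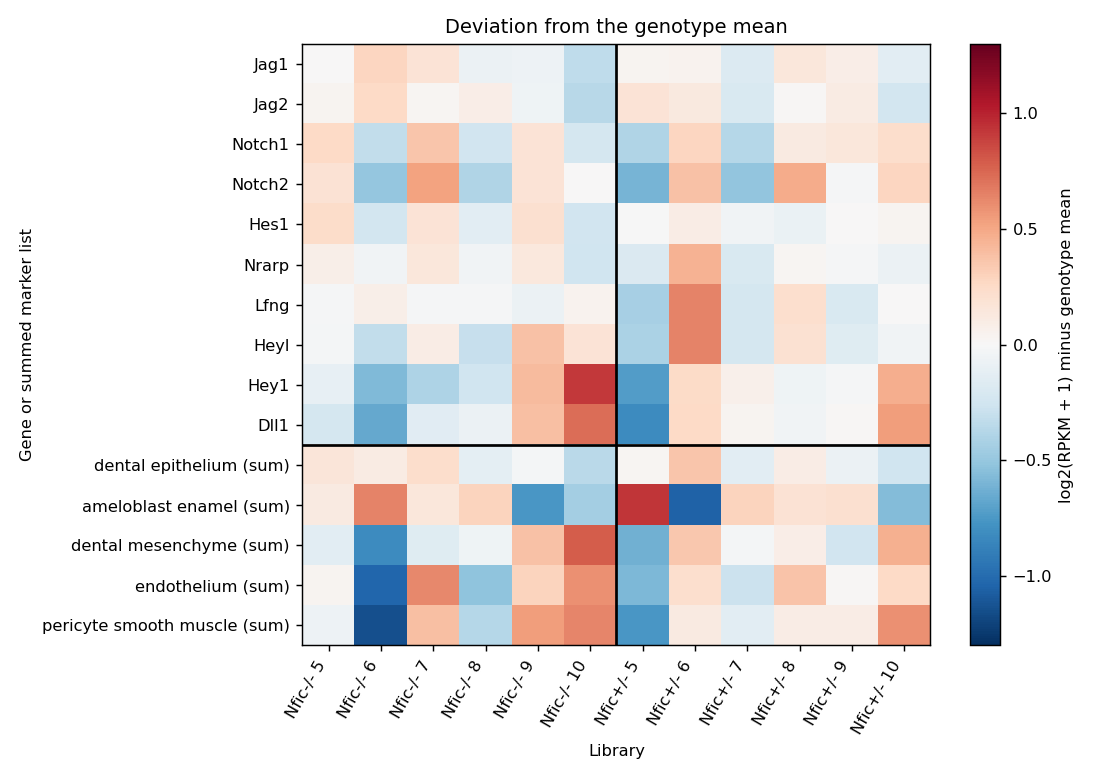
Deviation of each gene and of each summed marker list from its genotype mean, in log2(RPKM + 1), with the 6 Nfic-/- libraries on the left and the 6 Nfic+/- libraries on the right. Hey1 and Dll1 share colours with the dental mesenchyme and pericyte sums and oppose the enamel sum, and Jag2 is palest or opposite where they are strong.

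The patterns moved with marker levels of tissue layers. Dll1 had r = 0.96 and Hey1 r = 0.94 with the dental mesenchyme sum (12 libraries, rho 0.90 for both), and Jag2 had r = -0.80. Some other marker sums moved with them almost as closely. With the macrophage sum Dll1 had r = 0.92, Hey1 r = 0.90 and Jag2 r = -0.80, and with the pericyte and smooth muscle sum Dll1 had r = 0.88, Hey1 r = 0.80 and Jag2 r = -0.74. With the enamel sum Dll1 had r = -0.85 and Hey1 r = -0.81. The endothelial sum was less close, with r = 0.72 for Dll1, 0.65 for Hey1 and -0.59 for Jag2. With the sum of 8 odontoblast markers r was 0.16, 0.12 and -0.14 for the same genes. The macrophage sum was 15.3 to 88.1 RPKM in Nfic-/- libraries (median 37.2) and 31.4 to 75.9 RPKM in Nfic+/- libraries (median 59.5), and the enamel sum was 52825 to 140049 RPKM (median 98062) and 36034 to 142043 RPKM (median 85533). These patterns were thus not particular to mesenchyme markers. The mesenchyme markers stood lower in Nfic-/- libraries, with 0 of 9 tested markers above 0, against 5914 of 12094 genes. Their median difference was -0.49, beside -0.47 for Dll1 and -0.44 for Hey1, and a link between these was not tested. Msx2 (means of 78.2 and 78.7 RPKM in Nfic-/- and Nfic+/- libraries) and Barx1 (60.8 and 95.4 RPKM) were the largest parts of the mesenchyme sum. Divided by this sum in each library, Hey1 came to 13.1 ± 1.73 per 100 RPKM of marker in Nfic-/- and 13.1 ± 1.34 in Nfic+/- libraries (SD, n = 6 each; log2 difference -0.01, exact permutation p = 0.913). Dll1 came to 0.937 ± 0.156 and 1.13 ± 0.234 in Nfic-/- and Nfic+/- libraries (log2 difference -0.26, exact permutation p = 0.160). These ratios were among 10 chosen after the values had been seen, and their p-values are unadjusted.

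Jag1 and Nrarp moved with the dental epithelium sum, with r = 0.75 and 0.80 over 12 libraries. This sum was 68.46% to 75.05% Krt14, Krt17 and Krt5 transcript. Jag1 per 100 RPKM of epithelial marker was 0.763 ± 0.0594 in Nfic-/- and 0.861 ± 0.0963 in Nfic+/- libraries (exact permutation p = 0.0693), and Jag2 was 1.61 ± 0.180 and 1.82 ± 0.196 (exact permutation p = 0.0909). So the Jagged ligands, higher than in controls in RPKM, were lower per unit of epithelial marker, within the spread in both cases. Nrarp per 100 RPKM of epithelial marker was 0.542 ± 0.0458 in Nfic-/- and 0.664 ± 0.0673 in Nfic+/- libraries, a log2 difference of -0.29 (exact permutation p = 0.00866). Without Nfic+/- library 6 the log2 difference was -0.27. In RPKM, Nrarp differed by 0.07 (exact permutation p = 0.569), while the epithelial sum was higher in Nfic-/- libraries in 6 of 6 pairs. A gene of even level would therefore also come out lower per unit of this sum. The share of all genes with such a ratio was not computed, and the p-value of the ratio is unadjusted.

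The gene most like Nrarp in profile was the epithelial adhesion gene Cdh1 (r = 0.99, rho 0.97 over 12 libraries), which also belongs to the epithelial list. Cdh1 had 69.2 ± 9.84 RPKM in Nfic-/- and 56.5 ± 16.8 RPKM in Nfic+/- libraries (SD, n = 6 each). Whether tissue makeup plays a part in any of these differences was not tested.

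**Figure D4:**
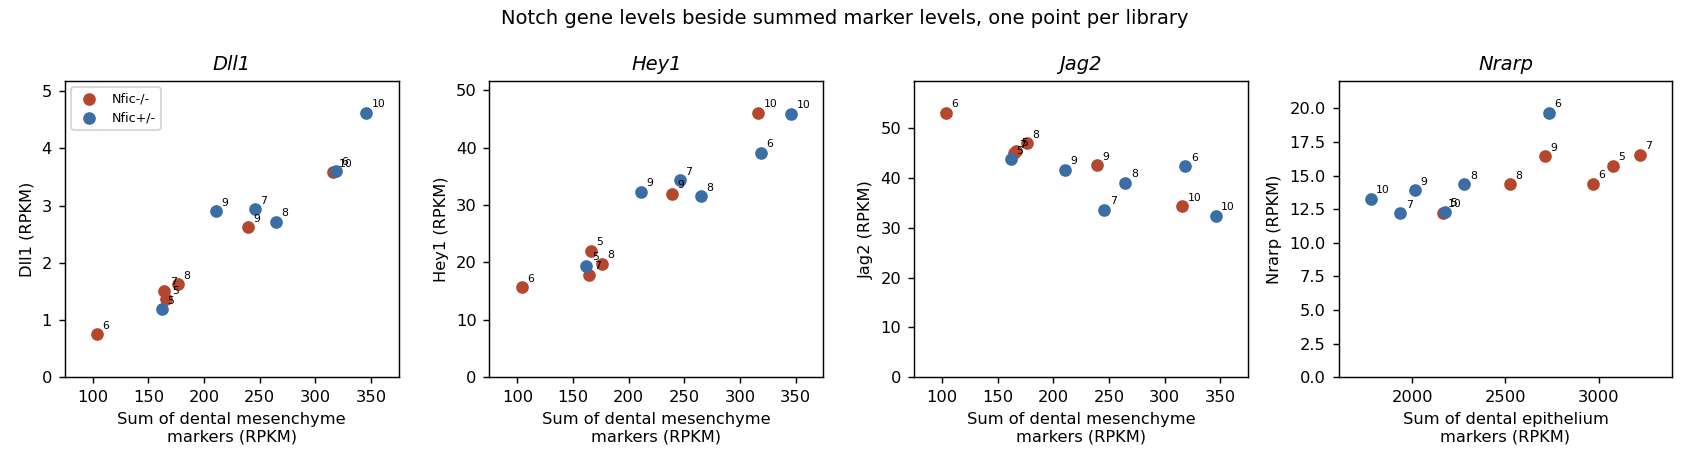
Level in RPKM of Dll1, Hey1 and Jag2 against the summed dental mesenchyme markers and of Nrarp against the summed dental epithelium markers, 1 point per library with its number, Nfic-/- in red and Nfic+/- in blue. Dll1 and Hey1 rise with the mesenchyme sum in both genotypes and Jag2 slopes down. Per 100 RPKM of that sum, mean Dll1 was 0.937 in Nfic-/- and 1.13 in Nfic+/- libraries, and mean Hey1 was 13.1 in both. Most Nfic-/- points lie right of Nfic+/- points with a like level of Nrarp.

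Other Notch pathway genes showed no call either. Of 58 further genes of the pathway, 43 passed the filter, 16 stood above 0 and 27 below, and 0 passed the adjusted threshold. At an unadjusted p under 0.05, 2 of the 43 were lower (Dll4 and Notch3) and 0 higher, against 2.72% and 2.62% of all genes. The 4 tested receptors and ligands (Notch3, Dll4, Dlk1, Dner) all stood below 0, while 7 of 9 genes of receptor proteolysis stood above 0 and 11 of 13 nuclear factors below it, most by very little. Notch3, a receptor known from pericytes and smooth muscle, had 2.997 to 7.14 RPKM in Nfic-/- libraries (median 5.02) and 3.80 to 10.2 RPKM in Nfic+/- libraries (median 7.75). Its difference was -0.46 (SE 0.204; exact permutation p = 0.0736, limma adjusted p = 0.934), lower in 5 of 6 pairs. Dll4, a ligand known from endothelium, had 0.729 to 2.08 RPKM in Nfic-/- libraries (median 1.16) and 1.38 to 2.08 RPKM in Nfic+/- libraries (median 1.82). Its difference was -0.33 (SE 0.141; exact permutation p = 0.0541, limma adjusted p = 0.934).

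Notch3 per 100 RPKM of the pericyte and smooth muscle marker sum was 9.18 ± 1.80 in Nfic-/- and 9.41 ± 0.497 in Nfic+/- libraries (exact permutation p = 0.675). That sum was 23.7 to 83.6 RPKM in Nfic-/- libraries (median 60.8) and 43.9 to 113 RPKM in Nfic+/- libraries (median 80.0). Of its 7 tested markers, 5 stood below 0 and 2 above, so the ratio depends on which markers are summed. Dll4 per 100 RPKM of the endothelial sum was 2.87 ± 0.865 and 2.94 ± 0.478 (exact permutation p = 0.716). The endothelial sum itself was 20.4 to 66.6 RPKM in Nfic-/- libraries (median 48.1) and 40.6 to 79.4 RPKM in Nfic+/- libraries (median 66.9). All 12 of its markers stood below 0, against 6180 of 12094 genes. For genotype 0 of them passed the adjusted threshold, as did 0% of all genes. At an unadjusted p under 0.05 (limma) 3 of them were lower, against 2.72% of all genes.

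Of the core machinery, Rbpj, the DNA-binding partner of the receptors, had 5.57 ± 0.572 RPKM in Nfic-/- and 5.86 ± 0.909 RPKM in Nfic+/- libraries, a difference of -0.05 (SE 0.099). Psenen, a subunit of the protease that releases the receptor, had 9.37 to 9.75 RPKM in Nfic-/- libraries (median 9.52) and 8.06 to 10.1 RPKM in Nfic+/- libraries (median 8.42), a difference of 0.13 (exact permutation p = 0.0216, limma adjusted p = 0.941). Fbxw7, which marks the activated receptor for breakdown, had 4.90 ± 0.742 RPKM in Nfic-/- and 4.41 ± 0.588 RPKM in Nfic+/- libraries. Mfng, another Fringe enzyme, had 1.26 ± 0.456 and 1.66 ± 0.389 RPKM, and Dlk1, a Delta-like membrane protein, 1.40 ± 0.874 and 2.29 ± 1.37 RPKM in Nfic-/- and Nfic+/- libraries. The target Hes5 was under the filter, at 0.243 ± 0.101 RPKM in Nfic-/- and 0.232 ± 0.138 RPKM in Nfic+/- libraries.

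**Figure D5:**
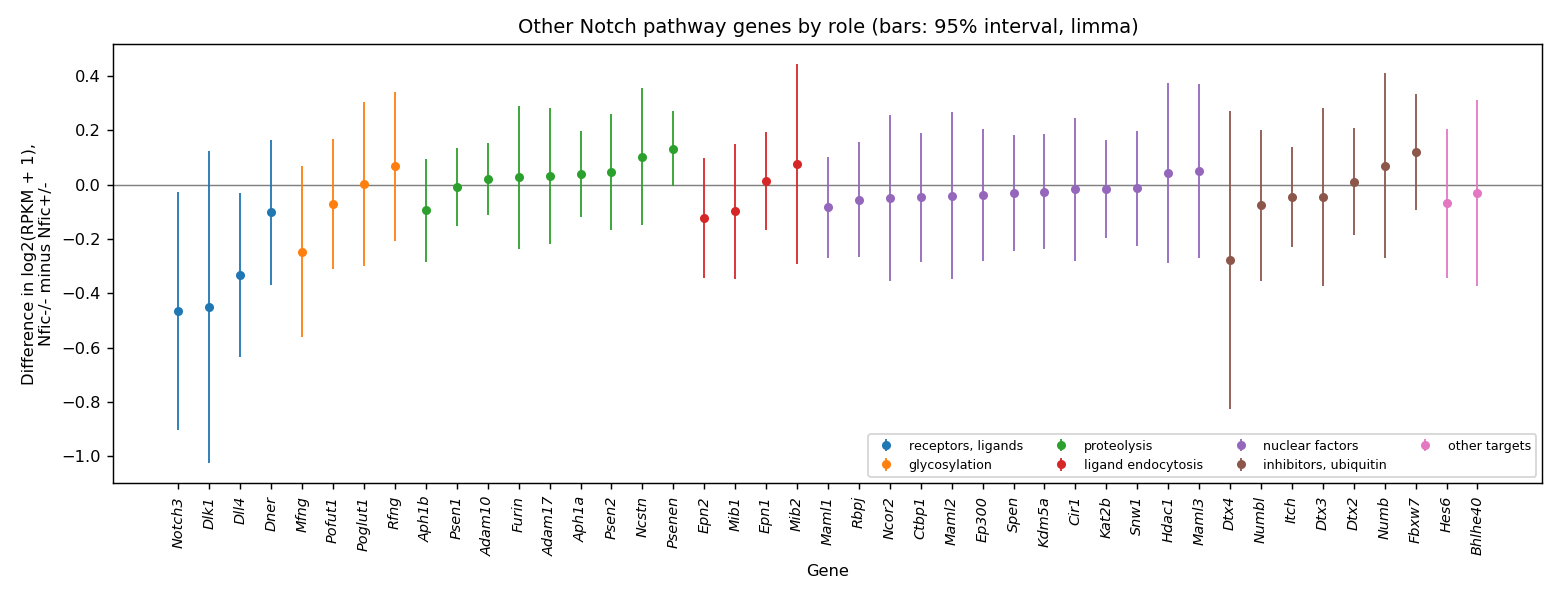
Difference of each of the 43 other tested Notch pathway genes in log2(RPKM + 1), Nfic-/- minus Nfic+/-, with its 95% interval from limma, grouped by role. The 4 receptors and ligands at the left lie below 0, and most other genes lie within 0.1 of it.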

How the data were processed

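Per the labels, RNA of the apical part of first mandibular molars was sequenced. TopHat2 and the mm10 build were used, per the submitters' processing notes, and how reads were counted is not given in the sources used here. Values that the authors deposited are log2 RPKM: base 2 was inferred from the values, since the implied reads came to 0.773 to 0.835 of the depth in base 2 and 8.23 to 28.4 times it in base e. Depth was read from the size of 1 read: of 11017 values under 20 reads, 98.5% were whole within 0.02. Genes with no reads carry 0.9 reads.

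The analysis used log2(RPKM + 1) of the back-transformed values and limma 3.58.1 in R 4.3.3 (variance trend, genotype only), over the 12094 genes whose mean reached 1 RPKM, with Benjamini-Hochberg adjustment at 0.05. Single values had an exact two-sided permutation test over 924 assignments, unadjusted, with 0.00216 as the smallest p. Figures and tables used matplotlib 3.10.9, pandas 2.3.3 and numpy 2.4.6 in Python 3.11.15. Genes were annotated from GENCODE M21 (24987 matched, 912 not).

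The series text speaks of pairs, and equal numbers were read as littermates. Deviations of equal-numbered libraries correlated at r = 0.492, 0.00502, 0.310, 0.667, 0.688 and 0.802 for numbers 5 to 10. The members and lists were chosen with earlier results of these data known. Named genes were the members, Nfic, the 6 other pathway genes with the smallest p plus Notch3, Dll4, Rbpj and Hes5, and the 2 genes most alike in profile to a member; some of these are not reported here. Alternatives were a block for the pair, other scalings, filters, pseudocounts and weights, a rank test, the run, and libraries left out.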

Additional observations from a re-analysis of the deposited data

Results flagged for a closer look

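Of 56 groups of 6 values checked, 3 held a library far from the other 5, and chance flags about 1 group in 20. Nrarp had 19.7 RPKM in Nfic+/- library 6, against 12.2 to 14.4 RPKM in the other 5 Nfic+/- libraries. Dlk1 had 4.92 RPKM in Nfic+/- library 10, against 1.06 to 2.30 RPKM in the other 5 Nfic+/- libraries. The summed skeletal muscle markers were 41.6 RPKM in Nfic-/- library 9, against 3.42 to 5.69 RPKM in the other 5 Nfic-/- libraries.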

How the results depend on the processing

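Under 29 alternatives, 28 of them planned, 0 of the 10 Notch genes passed the adjusted threshold, and 273 of 288 values kept their direction. Of these, 68 belong to 7 settings that leave the estimate as it is (block, filters, variance options, rank test, run term), and under the others 205 of 220 kept it. Genes with an adjusted p under 0.05 numbered 0, but 17 with library weights and 4 with the replicate block and median-of-ratios scaling together, an alternative added after the data were seen. At an unadjusted p under 0.05 there were 646 genes and 0 Notch genes; these were 981 and 3 with the replicate block, 1128 and 3 with median-of-ratios scaling, 1068 and 2 with enamel genes left out of the total, 2263 and 6 with library weights, and 1879 and 3 with block and scaling together. The gene count was 375 with a filter of 5 RPKM, 324 without libraries 8 and 9 and 271 in libraries 8 to 10 alone. The Notch count was 1 by an exact rank-sum test, 1 without the libraries numbered 6, 2 in libraries 5 to 7 alone and 1 with a run term. Leaving out 1 library gave 319 (without Nfic+/- 10) to 1249 genes (without Nfic-/- 10) and 0 to 4 Notch genes. Directions turned for Notch1 with library weights (0.11), without the libraries numbered 6 (0.0547), without 8 and 9 (0.0181) and in 5 to 7 alone (0.20), for Notch2 in 8 to 10 alone (-0.19), for Hes1 with weights (0.0679), for Rbpj without number 6 (0.0304), and for Heyl without 8 and 9 (-0.0027), in 5 to 7 alone (-0.0817) and with 1 library left out (-0.0751 to 0.136). The cause was not tested. With 6 libraries per genotype and a median SE of 0.113 over all genes, differences the size of most of these were not detectable.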

Other observations

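Several neighbours in profile, chosen by likeness over 12 libraries, were genes of other roles. Those of Jag1 were Sema4b (r = 0.92) and Cd44 (r = 0.92), which encode a semaphorin and a hyaluronan receptor. Jag2 was most like Epha2 (r = 0.94), an ephrin receptor, and Slc38a3 (r = 0.92), an amino acid transporter. Notch2 was most like Bach1 and Tnks2, Heyl like Tpst2 and Tbc1d10b, Lfng like Atp9a and Mfsd1, Dll1 like Chst10 and Mras, and Hey1 like Gtf3c6 and Sri.

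Atp9a shared the uneven spread of Lfng between genotypes, with 28.7 ± 0.658 RPKM in Nfic-/- libraries and 26.5 ± 4.68 RPKM in Nfic+/- libraries (SD, n = 6 each), and so did Mfsd1, with 24.0 ± 0.696 and 23.6 ± 5.06 RPKM. These 2 genes were picked for likeness to Lfng, so this is a description. The sum of the 10 Notch genes was 155.8 to 183.1 RPKM in Nfic-/- libraries (median 173.3) and 142.5 to 201.4 RPKM in Nfic+/- libraries (median 172.0), and higher in 3 of 6 pairs.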
